A study of Mus musculus with 8 samples.

Results

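The genes described here are 9 that are best known from blood vessels: Eng, Mcam, Cspg4, Flt1, Adgra2, Ptprb, Notch3, Rgs5 and Jph2. They were followed in RNA from cultured mouse colon fibroblasts, out of 45321 annotated genes with values and 12963 with enough reads to be tested. These members were chosen by their symbols, with genotype and culture values of these same libraries already known. Their differences are therefore given as descriptions, with standard errors and without p-values of single members. Where members past the test threshold are named or counted below, this describes the choice and is no test of them. Rgs5 was the only member that did not pass the expression filter, so 8 members had a fitted fold change.

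The 8 libraries of polyadenylated RNA came from adherent fibroblasts. Per the study's methods such cultures grew out of fragments of normal colon or of chemically induced colon tumours, and which of these a culture came from is not given in the sources used here. A group of 4 libraries had the genotype Zeb1 flox/flox (Fib-Ctrl), in which both copies of the transcription factor gene Zeb1 carry loxP sites. The other 4 had the genotype Zeb1 del/del (Fib-dZeb1), in which Cre recombinase had removed the sequence between these sites in culture. How much of the gene the sites enclose is not given in the sources used here. All carried the label treatment none, and the sources used here do not give the age, sex or strain of the donors of these cultures. The study bred mice with Cre driven by Col1a2-CreERT2 or Col6a1-Cre, on FvB and C57BL/6 backgrounds, while the Cre that acted in these cultures is not given in the sources used here. The labels number 2 cultures per genotype, referred to here as line 1 and line 2, and each culture gave 2 replicate libraries. Whether the Fib-Ctrl cultures had also received Cre is not given in the sources used here, and an effect of Cre itself cannot be told apart from the deletion. How replicates of a line were separated is not stated either, and p-values over libraries treat them as independent although each genotype rests on 2 cultures.

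Endothelial cells line blood vessels, and pericytes and smooth muscle cells wrap around them. Signals between these layers run through ligand and receptor pairs such as VEGF with its receptors, angiopoietins with TIE receptors, BMP9 with ALK1 and endoglin, and Jagged or Delta ligands with NOTCH receptors. Fibroblasts of the gut wall share a mesenchymal origin with pericytes and smooth muscle, and several genes named after vessels are also transcribed in cultured mesenchymal cells. Endoglin (Eng), a TGFβ co-receptor, is for example also a marker of mesenchymal stromal cells. ADGRA2 is an adhesion receptor that works with RECK in WNT7 signaling at brain vessels, and PTPRB is the phosphatase that acts on the TIE2 receptor. JPH2 (junctophilin 2) ties the surface membrane to the calcium store in heart and smooth muscle.

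Several members are transcribed as forms that encode different proteins, and 3 of these forms are shown here because the reads of Flt1, Eng and Mcam are divided between them below. The reference is GRCm38 with GENCODE M21. Flt1 lies on chromosome 5 at 147561604 to 147726011 on the minus strand. Its transcript Flt1-202 has 30 exons and a coding length of 3999 bases. Flt1-203 has 13 exons, runs on into an intron and stops there after 2064 coding bases, before the exons for the membrane and kinase parts, as known for soluble FLT1. Eng lies on chromosome 2 at 32646595 to 32682669 on the plus strand. Eng-202 keeps the last intron and codes over 1923 bases in place of the 1959 of Eng-201, the arrangement known for the short-tailed form of endoglin. Mcam lies on chromosome 9 at 44134469 to 44142727 on the plus strand. Mcam-202 skips a coding exon of 118 bases near the 3′ end and codes over 1818 bases in place of 1944. In each line the last 12 bases of the shared coding exon are in lower case, and capitals mark the coding bases that only 1 of both forms contains. They were read from the transcript with the sequence, 5′ to 3′, and the coordinates are those of the capitals.
Flt1-203, intron bases chr5:147639133-147639224, minus strand: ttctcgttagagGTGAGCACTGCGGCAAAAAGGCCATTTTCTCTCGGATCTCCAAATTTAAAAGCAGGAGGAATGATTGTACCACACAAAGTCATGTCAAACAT
Eng-202, retained intron bases chr2:32681298-32681383, plus strand: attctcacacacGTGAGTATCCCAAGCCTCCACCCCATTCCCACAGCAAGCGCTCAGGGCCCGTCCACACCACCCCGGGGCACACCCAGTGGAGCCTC
Mcam-201, exon chr9:44141275-44141392 that Mcam-202 skips, plus strand: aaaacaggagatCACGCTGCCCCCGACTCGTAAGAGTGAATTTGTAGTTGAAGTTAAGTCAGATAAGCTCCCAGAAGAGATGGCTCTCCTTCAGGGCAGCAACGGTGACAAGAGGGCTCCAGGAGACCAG

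The libraries held 18852422 to 25540529 reads assigned to transcripts. Zeb1, the targeted gene, lay between 92.1 and 98.5 CPM (reads of a gene relative to the TMM-scaled library total) in the 4 Fib-Ctrl libraries and between 11.4 and 18.3 CPM in the 4 Fib-dZeb1 libraries. Reads of the X-inactivation transcript Xist were found in Fib-dZeb1 line 1 only, with 5256 and 2704 reads, and the Y-linked gene Ddx3y was found in the other 3 cultures only. The lines with number 1 thus differed in sex and did not come from 1 animal. The lines of Fib-dZeb1 differed in sex as well. A difference between them, or between genotypes within line number 1, therefore cannot be told apart from a difference between the sexes. Of 12 fibroblast markers all 12 passed the filter, with a summed TPM (abundance corrected for transcript length and depth) of 18500 to 24000 in controls, against 8560 to 13500 in deleted cultures.

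Defining genes of endothelium were at or near 0. Pecam1 had 20 reads in all 8 libraries together, Cdh5 had 7 and Tie1 had 1, and Sox17, Cldn5 and Robo4 had 0 reads. Kdr, the main VEGF receptor of endothelium, averaged 0.908 ± 0.261 CPM in controls and 1.85 ± 1.38 CPM after deletion (mean ± SD, n = 4 libraries each, as in all such values), and Tek, which encodes TIE2, had 69 and 18 reads. The 20 endothelial markers summed to 10.8 to 145 TPM in control libraries, against 86.7 to 184 TPM in Fib-dZeb1, most of it Ecscr at 34.1 ± 33.3 and 50.1 ± 17.8 CPM. Of the 3 endothelial markers tested, 0 were called by edgeR, 1 had an unadjusted p under 0.05 and 0 were called by DESeq2. Among pericyte markers that are not members, Higd1b and Vtn had 0 reads and Cox4i2 had 1, whereas Pdgfrb was abundant at 383 ± 80.7 CPM in Fib-Ctrl. In bulk RNA, fewer cells of a type and less RNA per cell cannot be told apart.

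On the length-corrected scale, the members fell into an abundant and a sparse set. In Fib-Ctrl the mean level was highest for Jph2 at 67.5 ± 39.6 TPM, followed by Eng at 35.6 ± 13.9 TPM, Mcam at 32.6 ± 25.0 TPM and Adgra2 at 32.4 ± 27.0 TPM. These last 3 did not differ beyond their spread. Cspg4 at 3.13 ± 0.628 TPM, Ptprb at 2.55 ± 1.74 TPM and Flt1 at 1.40 ± 1.06 TPM were lower, and Notch3 at 0.939 ± 0.361 TPM and Rgs5 at 0.246 ± 0.162 TPM lay below 1. In Fib-dZeb1 the order was different, with Mcam at 81.4 ± 13.3 TPM and Eng at 64.8 ± 74.1 TPM on top. Adgra2 followed at 13.9 ± 12.3 TPM, then Flt1 at 5.83 ± 5.21 TPM and Cspg4 at 4.19 ± 3.05 TPM, and Jph2 was at 2.40 ± 2.22 TPM. The ranking therefore moved mainly through Jph2, which went from first to sixth place. Ptprb at 0.274 ± 0.213 TPM and Rgs5 at 0.0841 ± 0.117 TPM were lowest.

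**Figure D1:**
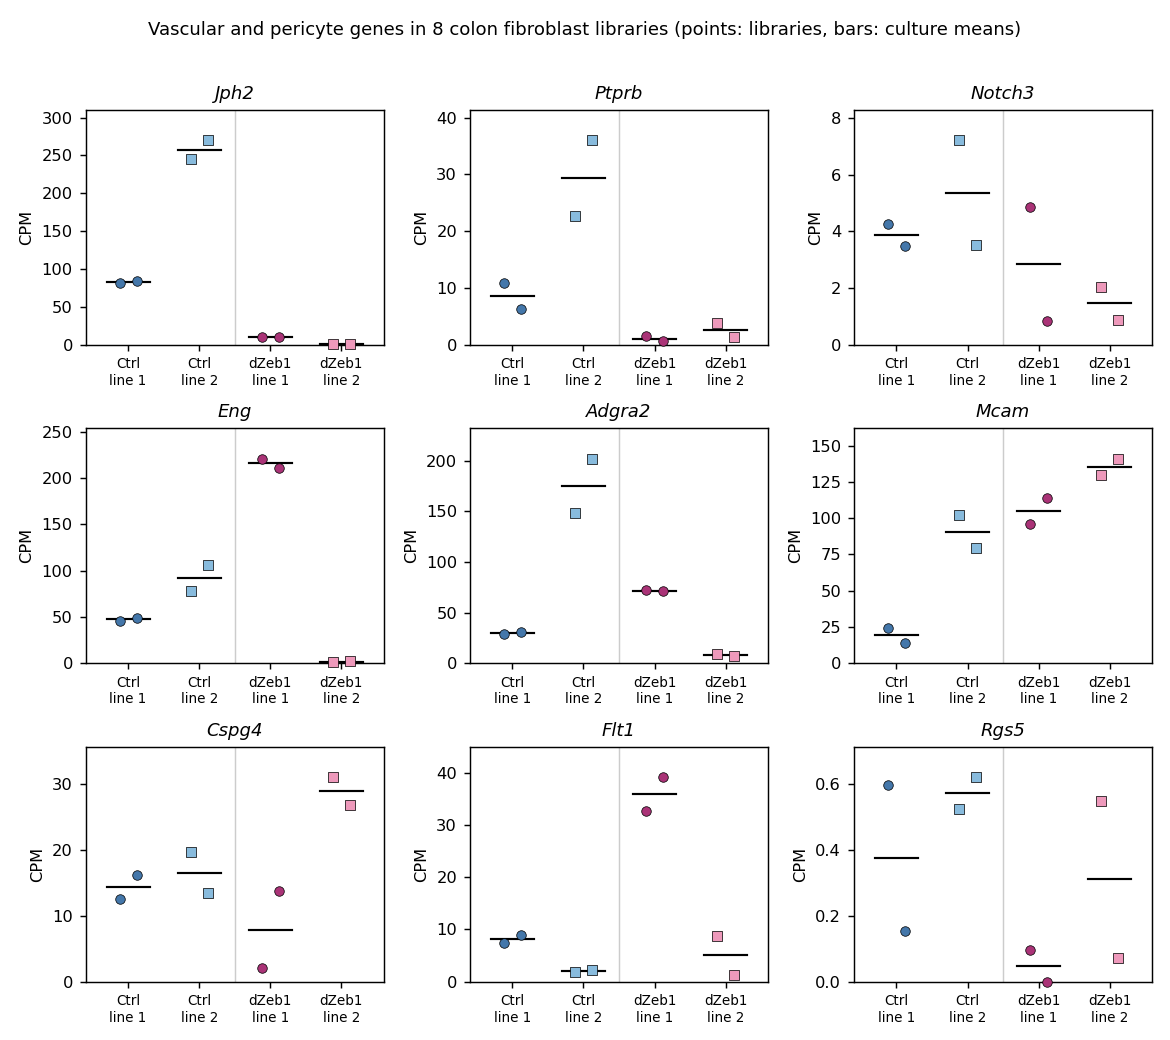
CPM (linear axis from 0, own scale per gene) of the 9 members in 8 libraries, by culture. Points are single libraries and bars are means of the 2 libraries of a culture. Jph2 was 80.9 to 270 CPM in Fib-Ctrl and at most 9.75 CPM in Fib-dZeb1, while Eng and Adgra2 parted the lines of Fib-dZeb1.

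Jph2 was the member with the widest range, 307-fold between its lowest and highest library. In Fib-Ctrl it was at 80.9 and 83.8 CPM in line 1 and at 245 and 270 CPM in line 2. In Fib-dZeb1 it was at 9.69 and 9.75 CPM in line 1 and at 1.18 and 0.881 CPM in line 2, from 26 and 24 reads. Every Fib-dZeb1 library thus lay below every Fib-Ctrl library, and replicates of a culture nearly coincided. The fitted log2 fold change was -4.99 (SE 0.90), which is 31.7-fold lower in Fib-dZeb1. Within line number 1 it was -3.08 (SE 0.12) and within line number 2 it was -7.97 (SE 0.16), so the size rested on which cultures were set against each other. The culture with the most Jph2 among controls and the one with the least among deleted cultures bear the same number.

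Part of the smooth muscle markers were also lower in Fib-dZeb1. Of 12 such markers 9 were tested, of which 6 were lower in Fib-dZeb1 and 0 higher, with a median log2 fold change of -0.86 beside -0.005 over all genes tested. Actg2, the enteric smooth muscle actin, fell from 1620 ± 549 to 192 ± 102 CPM (log2 fold change -3.08, edgeR adjusted p = 0.0044). Lmod1, an actin nucleator of smooth muscle, fell from 188 ± 43.1 to 74.3 ± 20.6 CPM (log2 fold change -1.34, edgeR adjusted p = 0.00897). With a correlation estimated within lines, limma-voom called 2 of the 9, Actg2 (adjusted p = 0.0129) and Cnn1, and gave Lmod1 an adjusted p = 0.0911. Smtn and Synpo2 had log2 fold changes of 0.23 and 0.53 and Myh11 of -0.44, and none of these passed the test. Between the lines of Fib-dZeb1, where Jph2 differed by -3.24 on the log2 scale, 1 of the 9 markers passed the test, Actg2 at -1.40, while Mylk was at 0.78 and Cnn1 at 0.41. The summed level of the list ranged over 8850 to 13700 TPM in controls, against 5630 to 6910 TPM in Fib-dZeb1, while Des, Myocd and Casq2 were under 0.5 CPM on average in both genotypes. The part of smooth muscle genes in the Jph2 values was not tested. The 8 striated muscle markers summed to at most 0.106 TPM in any library, with Myh6, Myh7, Actn2, Myod1 and Ckm at 0 reads.

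Other junctophilins and calcium channel genes did not show a fall of that size that passed the test. Of 13 such genes besides Jph2, 10 were tested, and 1 of them rose: Itpr3, an IP3 receptor of the calcium store, went from 124 ± 37.7 to 231 ± 30.0 CPM (log2 fold change 0.90, edgeR adjusted p = 0.0245). That edgeR call ended when the first replicate of Fib-Ctrl line 1 (adjusted p = 0.0599) or the second replicate of Fib-dZeb1 line 1 (adjusted p = 0.0632) or line 2 (adjusted p = 0.0602) was left out. With a correlation within lines its limma-voom adjusted p was 0.0933. Jph1, the skeletal muscle paralog, went from 4.39 ± 2.64 to 0.742 ± 0.747 CPM without overlap of libraries (log2 fold change -2.56, edgeR adjusted p = 0.0627). Jph4 was also lower on average, at 1.07 ± 0.574 and 0.529 ± 0.378 CPM with overlap (log2 fold change -0.99, edgeR adjusted p = 0.305). Itpr1, another IP3 receptor, was at 116 ± 14.4 and 104 ± 39.1 CPM. Of the 10 tested genes, 3 had an unadjusted p under 0.05 and DESeq2 called 3.

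Ptprb was the other member without overlap between genotypes. Its libraries were at 10.9 and 6.33 CPM in Fib-Ctrl line 1 and at 22.7 and 36.0 CPM in Fib-Ctrl line 2. In Fib-dZeb1 it was at 1.48 and 0.586 CPM in line 1 and at 3.74 and 1.32 CPM in line 2, from 31, 14, 82 and 36 reads. Line 2 had the higher mean in both genotypes, though the Fib-dZeb1 lines overlapped. The log2 fold change was -3.41 (SE 0.69), 10.7-fold lower in Fib-dZeb1. It was -3.08 (SE 0.62) within line number 1 and -3.55 (SE 0.58) within line number 2. Line numbers are labels not known to pair cultures, so the likeness of these values rests on which cultures were set against each other. Culture means of lines 1 and 2 were 8.64 and 29.3 CPM in Fib-Ctrl and 1.03 and 2.53 CPM in Fib-dZeb1.

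The angiopoietin and TIE genes, the pathway on which PTPRB acts, held both of the largest falls among the pathway genes that passed the test. Of 6 genes besides Ptprb, 4 were tested, 2 fell and 0 rose, and the median log2 fold change was -2.55. Angpt4, a TIE2 ligand, went from 26.9 ± 24.6 to 1.65 ± 0.819 CPM (log2 fold change -4.03, edgeR adjusted p = 0.0167). Svep1, an extracellular matrix protein that binds TIE1 and angiopoietins, went from 548 ± 341 to 32.8 ± 44.4 CPM (log2 fold change -4.07, edgeR adjusted p = 0.0324). Both calls rested on few cultures. Angpt4 was no longer called by edgeR when the second replicate of Fib-dZeb1 line 1 (adjusted p = 0.0504) or of line 2 (adjusted p = 0.0566) was left out, and with a correlation within lines its limma-voom adjusted p was 0.259. Svep1 stayed called by edgeR when the second replicate of Fib-Ctrl line 2 or the first of Fib-dZeb1 line 1 was left out, and was not called without any of the other 6 libraries (adjusted p = 0.0518 to 0.0856). With a correlation within lines its limma-voom adjusted p was 0.049. Angpt1, the main TIE2 agonist, was at 4.43 ± 3.44 and 2.12 ± 1.84 CPM (edgeR adjusted p = 0.419).

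The other R3 receptor phosphatases, the subfamily of PTPRB, did not move with it. Of 4 such genes 2 were tested and 0 were called by edgeR, 0 had an unadjusted p under 0.05 and 0 were called by DESeq2. Ptprj was at 18.9 ± 4.07 and 23.0 ± 10.7 CPM, and Ptprq was at 1.13 ± 0.588 and 2.0 ± 2.72 CPM. Ptprh had 0 reads and Ptpro had 4.

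Notch3, the NOTCH receptor of vascular smooth muscle and pericytes, was sparse everywhere. It was at 4.26 and 3.5 CPM in Fib-Ctrl line 1, 7.22 and 3.51 CPM in Fib-Ctrl line 2, 4.87 and 0.837 CPM in line 1 of Fib-dZeb1, and 2.05 and 0.881 CPM in its line 2. The first Fib-dZeb1 line 1 replicate lay among the controls and the other 3 Fib-dZeb1 libraries lay below all of them. The log2 fold change was -1.10 (SE 0.58), and without that replicate it was -1.88. Among 13 tested NOTCH ligands, receptors and targets besides Notch3, 0 were called by edgeR, 2 had an unadjusted p under 0.05 and 0 were called by DESeq2. Rbpj, the DNA-binding partner of all NOTCH receptors, was at 141 ± 56.4 and 194 ± 76.5 CPM, and the target gene Hes1 was at 31.8 ± 5.80 and 31.7 ± 7.55 CPM. Heyl and Hey2, targets of NOTCH in vascular smooth muscle, had 11 and 47 reads over all libraries.

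Eng parted the cultures more than the genotypes. It was at 46.0 and 49.1 CPM in Fib-Ctrl line 1 and at 78.6 and 106 CPM in Fib-Ctrl line 2. Fib-dZeb1 line 1 had the highest levels, 221 and 211 CPM, and Fib-dZeb1 line 2 had the lowest, 1.09 and 2.09 CPM, from 24 and 57 reads. The Fib-dZeb1 cultures thus lay on both sides of all controls, 132-fold apart in the fit, whereas the Fib-Ctrl cultures were 1.94-fold apart. The log2 fold change over all libraries, 0.64 (SE 1.30), was smaller than its error. Within line number 1 it was 2.18 (SE 0.22) and within line number 2 it was -5.82 (SE 0.28).

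Genes of the BMP9, ALK1 and TGFβ receptors, the pathway of endoglin, did not part the Fib-dZeb1 lines in this way. Of 18 genes besides Eng, 16 were tested, and the median log2 fold change with genotype was -0.45. In edgeR 1 rose and 2 fell with genotype, 7 had an unadjusted p under 0.05 and DESeq2 called 6. Between the lines of Fib-dZeb1, 1 of the 16 passed the test, beside 6.87% of all genes. This was Tgfbr3, lower in line 2 as Eng was, by -1.45 on the log2 scale (edgeR adjusted p = 0.0178). Between the lines of Fib-Ctrl 7 of the 16 passed, beside 17.0% of all genes, with Tgfbr3 at -1.39 (edgeR adjusted p = 0.00851). Acvrl1, which encodes ALK1, was 3.05 (log2) higher in line 2 than in line 1 of Fib-Ctrl (edgeR adjusted p = 0.00114) and -0.62 (log2) in Fib-dZeb1 (edgeR adjusted p = 0.178). The BMP9 gene Gdf2 had 2 reads in all and Bmp10 had 0.

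Among these genes, Tgfbr3 (betaglycan, a co-receptor related to endoglin) fell from 105 ± 58.5 to 21.3 ± 12.2 CPM (log2 fold change -2.30, edgeR adjusted p = 0.0213). Tgfbr1 fell from 63.9 ± 8.09 to 43.5 ± 4.92 CPM (log2 fold change -0.55, edgeR adjusted p = 0.0223). Id1, a direct target of BMP signaling, rose from 47.6 ± 5.38 to 69.4 ± 9.94 CPM (log2 fold change 0.54, edgeR adjusted p = 0.0261). All 3 calls were close to the threshold. Tgfbr3 was not called by edgeR without either replicate of Fib-dZeb1 line 2 (adjusted p = 0.0542 and 0.0584), and had a limma-voom adjusted p = 0.0641 with a correlation within lines. For Tgfbr1 the edgeR call ended without the second replicate of Fib-Ctrl line 1, the first of Fib-Ctrl line 2 or either replicate of Fib-dZeb1 line 2 (adjusted p = 0.0552 to 0.0692), and had a limma-voom adjusted p = 0.156. Id1 was not called by edgeR without 5 libraries in turn, all but the second replicate of Fib-Ctrl line 1 and the first replicates of both Fib-dZeb1 lines (adjusted p = 0.052 to 0.072), and had a limma-voom adjusted p = 0.179.

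Adgra2 showed the same kind of crossing as Eng. It was at 28.8 and 31.1 CPM in Fib-Ctrl line 1, at 148 and 202 CPM in Fib-Ctrl line 2, at 72.1 and 71.5 CPM in line 1 of Fib-dZeb1, and its line 2 was at 9.25 and 7.05 CPM. The 4 cultures stood apart from each other without overlap, and both the highest and the lowest of them bear line number 2. The log2 fold change over all libraries was -1.36 (SE 0.92), made up of 1.26 (SE 0.18) within line number 1 and -4.43 (SE 0.20) within line number 2. Line 2 exceeded line 1 by 2.54 (SE 0.18) on the log2 scale in Fib-Ctrl, and in Fib-dZeb1 the difference was -3.14 (SE 0.19).

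RECK, the membrane protein through which ADGRA2 receives WNT7, fell with genotype. Reck went from 26.2 ± 6.43 to 11.6 ± 3.71 CPM (log2 fold change -1.17, edgeR adjusted p = 0.0203). With the second replicate of Fib-dZeb1 line 2 left out, the edgeR adjusted p was 0.0606, and the limma-voom adjusted p with a correlation within lines was 0.102. It was the 1 call among 8 tested genes of this pathway besides Adgra2, whose median log2 fold change was 0.09. Adgra3, a paralog, was at 64.1 ± 8.2 and 62.9 ± 6.14 CPM. Wnt7a had 3 reads in all, and Wnt7b had 4 reads in Fib-Ctrl and 458 in Fib-dZeb1 and was not tested. The Fib-dZeb1 libraries were uneven in Wnt7b, from 0.239 to 13.6 CPM.

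**Figure D2:**
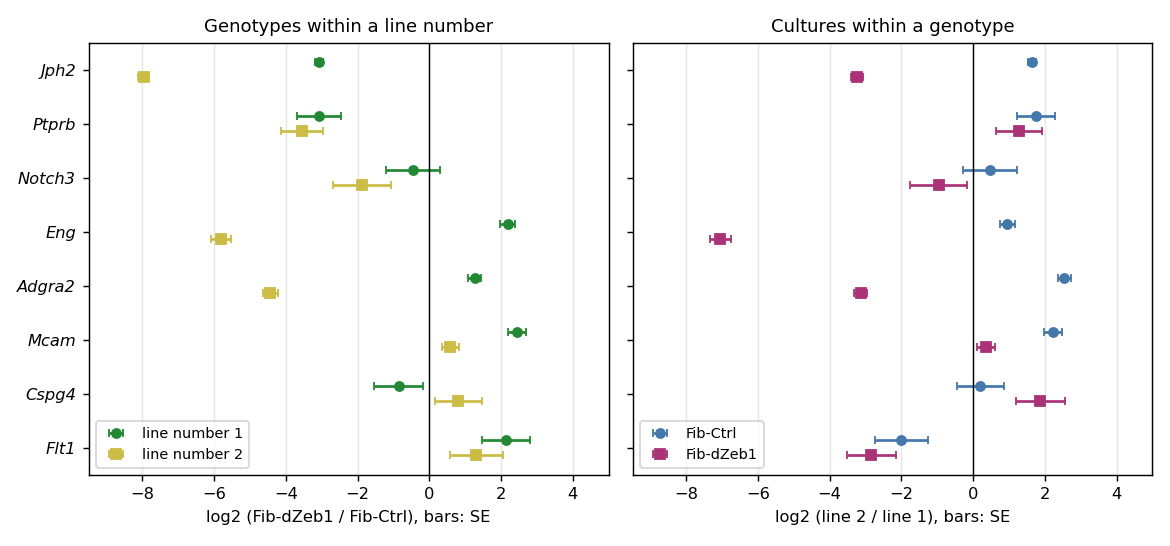
Log2 differences of the 8 fitted members with SE bars, from a fit with 1 mean per culture. The left panel sets genotypes against each other within a line number, and the right panel sets line 2 against line 1 within a genotype; Eng was at 2.18 and -5.82 on the left, and Jph2 was at -3.08 and -7.97.

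In the fit with 1 mean per culture, the lines of Fib-Ctrl differed (adjusted p under 0.05) in Eng, Mcam, Adgra2 and Jph2, all higher in line 2, which is 4 of 8 members. Over all 12963 genes 8.32% were higher and 8.72% were lower in that contrast. The lines of Fib-dZeb1 differed in Eng, Adgra2 and Jph2, all lower in line 2, which is 3 of 8 members, beside 3.39% of all genes higher and 3.48% lower. In Eng, Adgra2 and Jph2 the libraries of both lines parted in opposite directions in the 2 genotypes, which also held for 20.2% of all genes tested. Between genotypes, Ptprb and Jph2 were called lower, 2 of 8 members, beside 8.65% of all genes. Both were also the members whose libraries did not overlap, beside 12.3% of all genes lower without overlap and 12.0% higher. Without Fib-dZeb1 line 2 replicate 2 the count of members called lower was 1, beside 508 of all genes. Without Fib-dZeb1 line 1 replicate 1 it was 3, beside 1141 of all genes. In edgeR 0 members were called higher, beside 7.54% of all genes, 0 had an unadjusted p under 0.05 in that direction and 0 were called by DESeq2. Since these contrasts were known when the members were picked, the counts are a description of the choice.

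Mcam (CD146), an adhesion molecule of endothelium and pericytes, was lowest in 1 culture. It was at 24.5 and 14.0 CPM in Fib-Ctrl line 1, at 102 and 79.7 CPM in Fib-Ctrl line 2, at 96.1 and 114 CPM in line 1 of Fib-dZeb1, and its line 2 was at 130 and 141 CPM. Fib-Ctrl line 2 overlapped with Fib-dZeb1 line 1 in CPM, and Fib-Ctrl line 1 stood apart below. On the TPM scale these cultures did not overlap, with at most 60.9 TPM in Fib-Ctrl line 2 and at least 66.9 TPM in Fib-dZeb1 line 1. In the fit the log2 fold change was 1.13 (SE 0.55), with 2.44 (SE 0.26) within line number 1 and 0.58 (SE 0.24) within line number 2.

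Cspg4 (NG2), a membrane proteoglycan that marks pericytes, was the steadiest member in Fib-Ctrl. It was at 12.5 and 16.2 CPM in Fib-Ctrl line 1 and at 19.6 and 13.4 CPM in Fib-Ctrl line 2. Replicates of Fib-dZeb1 line 1 differed widely, at 2.01 CPM from 42 reads and 13.7 CPM from 327 reads, and Fib-dZeb1 line 2 was highest at 31.0 and 26.8 CPM. Genotypes differed by a log2 fold change of 0.25 (SE 0.63), with -0.86 (SE 0.67) within line number 1 and 0.81 (SE 0.66) within line number 2. The genotypes were not told apart by these values.

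Of the ligands and partners of CSPG4 and MCAM, 10 were tested, 0 were called by edgeR, 2 had an unadjusted p under 0.05 and 2 were called by DESeq2. Highest by TPM were Lgals1 and Itgb1. Itgb1, the β1 integrin, was at 2630 ± 878 and 1970 ± 226 CPM, and Lgals1, a galectin that binds MCAM, was at 1720 ± 274 and 1590 ± 339 CPM. Lama4, the vascular basement membrane chain to which MCAM binds, was at 225 ± 140 and 49.6 ± 62.0 CPM (edgeR adjusted p = 0.221). The collagen VI chain Col6a3, a ligand class of NG2, was at 3110 ± 299 and 1490 ± 698 CPM without overlap (edgeR adjusted p = 0.0511).

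Flt1 (VEGFR1), a decoy receptor for VEGF-A and receptor for PlGF, was highest in Fib-dZeb1 line 1. It was at 7.37 and 8.85 CPM in Fib-Ctrl line 1, at 1.81 and 2.22 CPM in Fib-Ctrl line 2, at 32.6 and 39.1 CPM in line 1 of Fib-dZeb1, and its line 2 was at 8.84 and 1.28 CPM. In each genotype line 2 lay below line 1, and the lowest of all was a Fib-dZeb1 library with 35 reads. Over all libraries the log2 fold change was 2.01 (SE 0.93), with 2.14 (SE 0.67) within line number 1 and 1.31 (SE 0.74) within line number 2. Line 2 minus line 1 was -2.0 (SE 0.74) in Fib-Ctrl and -2.84 (SE 0.69) in Fib-dZeb1 on the log2 scale.

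Of the other VEGF ligands and receptors all 9 were tested, 2 rose and 1 fell, and their median log2 fold change was 0.05. The co-receptors moved apart: Nrp2, which serves VEGF-C, rose from 201 ± 52.9 to 427 ± 17.5 CPM (log2 fold change 1.09, edgeR adjusted p = 0.0071), and Nrp1 fell from 498 ± 67.5 to 288 ± 57.0 CPM (log2 fold change -0.79, edgeR adjusted p = 0.0152). The lymphatic growth factor gene Vegfc rose from 19.6 ± 8.95 to 59.3 ± 18.5 CPM (log2 fold change 1.60, edgeR adjusted p = 0.0204). Nrp2 had an adjusted p = 0.0289 in limma-voom with a correlation within lines, Nrp1 an adjusted p = 0.0791 and Vegfc an adjusted p = 0.0539. With the second replicate of Fib-dZeb1 line 1 left out, Vegfc had an edgeR adjusted p = 0.0534. Vegfa was at 149 ± 69.4 and 68.0 ± 24.4 CPM (edgeR adjusted p = 0.0628), and Pgf, the PlGF gene, stayed under 1 CPM on average in both genotypes.

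Rgs5, a GTPase activator and a defining pericyte gene in mouse, was close to absent. The Fib-Ctrl libraries had 13, 3, 9 and 12 reads and the Fib-dZeb1 libraries had 2, 0, 12 and 2, at most 0.62 CPM in any library. The genotypes overlapped, and a library with 0 reads may still hold a level of up to 3 reads. Of 19 other RGS genes 9 were tested, with a median log2 fold change of -0.50. An unadjusted p under 0.05 was found for 6 of them, DESeq2 called 4 and edgeR called 1. Rgs3, a GTPase activator of broad expression, fell from 27.0 ± 4.28 to 19.1 ± 1.24 CPM (log2 fold change -0.50, edgeR adjusted p = 0.0382). Leaving out the second replicate of Fib-Ctrl line 2 kept the edgeR call, and leaving out any of the other 7 libraries ended it (adjusted p = 0.0656 to 0.0894), and with a correlation within lines its limma-voom adjusted p was 0.201. With the replicate number as a block its edgeR adjusted p was 0.0524. Larger falls without overlap of libraries did not pass in edgeR. These were Rgs4 (log2 fold change -1.33, edgeR adjusted p = 0.0633) and Rgs20 (-2.27, edgeR adjusted p = 0.0768). Rgs16 and Rgs19 had positive log2 fold changes of 1.16 and 0.26 (edgeR adjusted p = 0.394 and 0.143).

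Pericyte markers besides the members had lower means in Fib-dZeb1. Of 11 such genes 6 were tested, all with a negative log2 fold change (-2.04 to -0.43, median -1.18 beside -0.005 over all genes). An unadjusted p under 0.05 was found for 4 of them, DESeq2 called 3, edgeR called 1 and limma-voom with a correlation within lines called 0. The edgeR call was Pdgfrb, the PDGF receptor of pericytes and fibroblasts, which fell to 139 ± 50.2 CPM (log2 fold change -1.46, edgeR adjusted p = 0.00847; limma-voom adjusted p = 0.0732 with a correlation within lines). The list summed to at least 175 TPM in each Fib-Ctrl library, against a range of 76.5 to 130 TPM in the Fib-dZeb1 libraries, mostly Pdgfrb. Kcnj8 and Abcc9, which form a potassium channel of pericytes, were at 13.1 ± 2.80 and 6.48 ± 2.60 CPM in Fib-Ctrl and at 6.69 ± 5.76 and 2.49 ± 1.34 CPM in Fib-dZeb1. The cultures also differed: 3 of the 6 genes passed the edgeR test between the lines of Fib-dZeb1, beside 6.87% of all genes. On the log2 scale, line 2 minus line 1 was -2.77 for Kcnj8, -1.63 for Tbx18 and 1.11 for Foxf2. Between the lines of Fib-Ctrl 1 of the 6 passed, beside 17.0% of all genes. In Fib-dZeb1 Kcnj8 reached 12.1 CPM, above the lowest Fib-Ctrl library at 10.7 CPM. The part of pericyte genes in the values of the members was not tested.

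**Figure D3:**
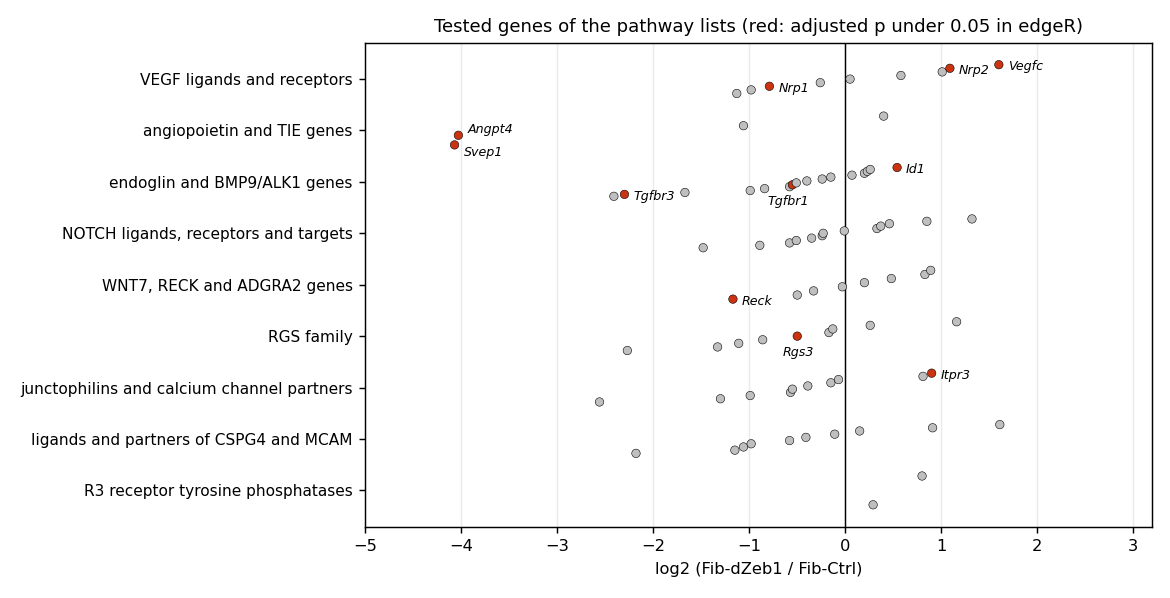
Log2 fold change (Fib-dZeb1 over Fib-Ctrl) of each tested pathway gene that is not a member, 1 point per gene, in rows by list. Red points passed an adjusted p of 0.05 in edgeR: 4 genes rose and 7 fell, with Svep1 at -4.07 farthest to the left.

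Across the 9 pathway lists together, 81 genes besides the members were tested. Of these 4 rose and 7 fell, beside 7.54% of all genes called higher and 8.65% called lower. The median log2 fold change of the 81 genes was -0.26, beside -0.005 over all genes. Of these 11 calls, 2 held with a correlation within lines, those of Nrp2 and Svep1. Summed libraries, 2 cultures against 2, gave 0 calls over all lists, beside 9 genes higher and 6 lower among all genes tested. Between the lines of Fib-Ctrl 34 of the 81 genes passed the test (42.0%, beside 17.0% of all genes), and between the lines of Fib-dZeb1 14 did (17.3%, beside 6.87%). The lists were drawn up with results of these data known, so these shares are no independent evidence.

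The forms of Flt1 were present side by side. Flt1-203, which carries the intron bases printed above, made up 32.3%, 41.3%, 51.0% and 46.4% of Flt1 TPM in the Fib-Ctrl libraries and 60.4%, 50.8%, 42.1% and 39.0% in the Fib-dZeb1 libraries. Means were 42.8% ± 8.02 and 48.1% ± 9.61, with overlap of the genotypes. Within Fib-dZeb1 the share was higher in line 1, where Flt1 itself was highest. Fib-Ctrl showed the reverse: the share was lower in line 1, although Flt1 averaged 2.31 TPM there and 0.494 TPM in line 2. These shares are Salmon estimates over whole transcripts, and no junction reads were counted.

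The share of Eng-202 was 7.06%, 13.4%, 18.7% and 14.7% in Fib-Ctrl and 12.6%, 9.27%, 32.2% and 26.0% in Fib-dZeb1. The highest shares belonged to Fib-dZeb1 line 2, where all Eng reads numbered 24 and 57. In these libraries Eng-201 was estimated at 0% and Eng-205, with a coding length of 1956 bases, at 67.8% and 74.0%, whereas in the other 6 libraries Eng-201 held 55.9% to 82.8%. Eng-201 and Eng-205 differ by 3 bases in coding length, and at these read numbers their split is an estimate without an interval.

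The exon-skipped form Mcam-202 made up 26.3%, 32.5%, 42.8% and 29.0% of Mcam TPM in Fib-Ctrl and 50.1%, 31.6%, 40.7% and 39.4% in Fib-dZeb1. Means were 32.7% ± 7.21 and 40.5% ± 7.60 with overlapping libraries. Adgra2-202, with 16 exons and 3363 coding bases in place of 19 exons and 4008, stood at 33.8% and 32.1% in Fib-dZeb1 line 2, the culture with least Adgra2, and at most at 10.8% elsewhere. Both annotated Jph2 forms have the same coding length of 2088 bases.

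**Figure D4:**
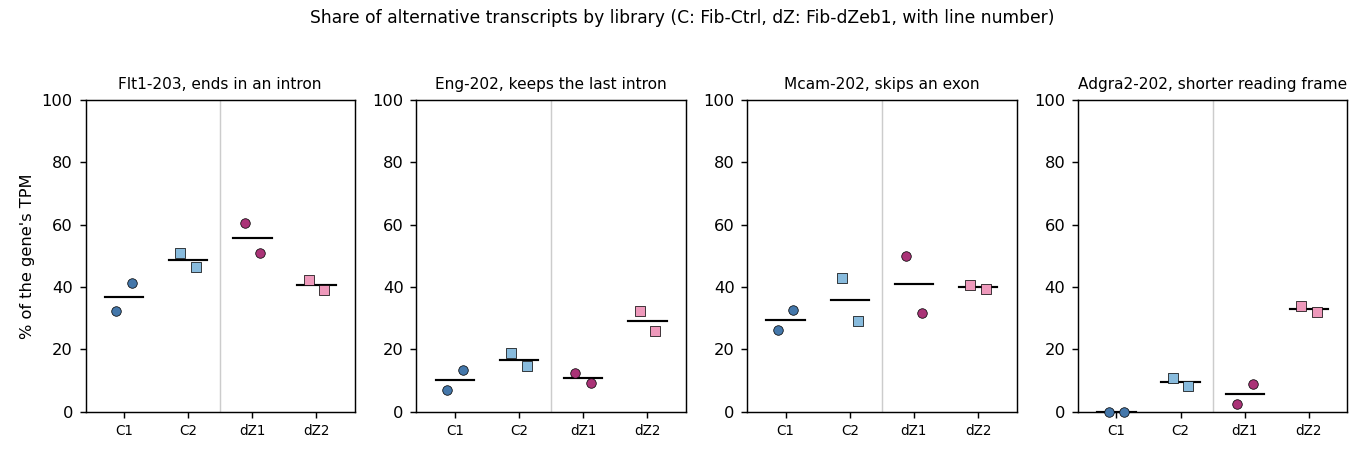
Share of a gene's TPM held by 4 alternative transcripts (0 to 100%), by culture, with points for libraries and bars for culture means. Flt1-203 lay between 32.3% and 60.4% in all libraries, and Adgra2-202 was above 30% in Fib-dZeb1 line 2 alone, at 33.8% and 32.1%.

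The members lie on 7 chromosomes. Besides the genes placed above, Rgs5 is on chromosome 1 (169655501 to 169695813), Jph2 on chromosome 2 (163336242 to 163397993), Adgra2 on chromosome 8 (27085583 to 27123436), Cspg4 on chromosome 9 (56865033 to 56899870), Ptprb on chromosome 10 (116275523 to 116389535) and Notch3 on chromosome 17 (32120820 to 32166852). Some share ground with other genes. The annotation of Eng overlaps with Fpgs on the other strand (5193 reads over all libraries), that of Adgra2 with Brf2 (1660 reads), that of Mcam with the antisense RNA Gm10687 (120 reads) and that of Notch3 with the antisense RNA Gm17276 (3 reads). The strand setting of the counting is not given in the sources used here, so reads from shared stretches cannot be told apart.

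ZEB1 is known to bind E-boxes with the core CAGGTG, and promoters of the members were read from RefSeq windows of GRCm38.p6, 250 bases before to 50 after a gene's start. Windows were found for 7 of the 9 members, 8 windows in all. The letters CAGGTG or CACCTG, its complement on the other strand, occurred in 1 member, Mcam, beside 20.2% of 32851 windows of the same length. The match lies 212 bases before the RefSeq start, and is shown in capitals within the stretch before the first annotated base of the gene.
Mcam, chr9:44134408-44134468, plus strand: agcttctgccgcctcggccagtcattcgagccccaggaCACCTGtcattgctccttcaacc
A match of letters is no evidence of binding, and the absence of a match covers these windows only.

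For each tested member the protein-coding genes with the most similar pattern were sought by Pearson correlation of log2(CPM + 0.5) over the 8 libraries, which share 4 cultures. For Jph2 the closest was Actg2 (r = 0.994), which went from 1310, 1070, 2300 and 1810 CPM in Fib-Ctrl to 253, 303, 108 and 103 CPM in Fib-dZeb1, the same order of cultures as Jph2, and then Cox7a2l (r = 0.990). For Ptprb they were Yif1b (r = 0.988) and Krcc1 (r = 0.987), for Notch3 Tmem175 and Kdm6b (r = 0.969 each), for Eng Nudcd2 (r = 0.983) and Tspan6 (r = 0.982), and for Adgra2 Nupl2 (r = 0.997) and E2f6 (r = 0.990). For Mcam they were Galnt17 (r = 0.988) and Rnaset2a (r = 0.987), for Cspg4 Fam92a (r = 0.981) and Trim47 (r = 0.956), and for Flt1 Gpkow (r = 0.965) and Paox (r = 0.947). Many of these genes varied far less than the member: Nudcd2 spanned 49.6 to 78.3 CPM where Eng spanned 1.09 to 221 CPM. Between members r was highest for Eng with Adgra2 (0.86), Ptprb with Jph2 (0.82) and Adgra2 with Jph2 (0.79), and lowest for Eng with Cspg4 (-0.69).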

How the data were processed

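The authors aligned the reads to GRCm38 with STAR, quantified them with Salmon and tested genotypes with DESeq2. For the versions of STAR and Salmon and for strandedness, the entry is: not given in the sources used here. The deposited tables hold estimated counts of reads per transcript, without normalization. The deposited tables also hold TPM per transcript, scaled by the authors' software for length and depth. Both were summed to genes with GENCODE M21, which matched 98.72% of 109617 transcripts (0.262% to 0.303% of reads were unmatched and left out), and counts were rounded.

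The 4 libraries of each genotype were compared by the quasi-likelihood test of edgeR 4.0.16 (R 4.3.3) with filterByExpr, TMM scaling and Benjamini-Hochberg adjustment over 12963 genes at 0.05. The SE of a log2 fold change is its size over the root of F. Line contrasts came from a fit with 1 mean for each of the 4 cultures. Depth was 18852422 to 25540529 reads per library, and replicates of a culture differed by more than sampling noise. Alternatives were RLE or no scaling, no filter, DESeq2 1.42.0, blocks, summed lines, limma 3.58.1 (voom with a correlation within cultures, and log2(TPM + 0.1)), and leaving out each library. Scripts were tested on simulated counts.

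Members, gene lists and rules were chosen with earlier results of these data known. Named were the members, Zeb1, up to 2 rising and 2 falling genes past the threshold in each list (else its 2 most abundant by TPM), 5 endothelial markers, for each tested member its 2 closest protein-coding genes, and the tested neighbours of Ptprb. A gene that this rule names is not reported here. Xist, Ddx3y and further list genes were named after their values were seen.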

Additional observations from a re-analysis of the deposited data

Results flagged for a closer look

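In 3 members the lines of both genotypes moved in opposite directions, with all libraries of line 2 on one side of line 1 in Fib-Ctrl and on the other side in Fib-dZeb1. On the log2 scale, line 2 minus line 1 in Fib-dZeb1 was -7.05 for Eng, -3.14 for Adgra2 and -3.24 for Jph2, beside 0.95, 2.54 and 1.65 in Fib-Ctrl. As these members were picked with such values known, the difference was not tested as evidence for them.

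In 8 of the named genes that are not members, the genotype difference differed between line numbers in the interaction test of edgeR. The log2 difference (line number 2 minus line number 1) was 2.73 for Ecscr (adjusted p = 0.0296), -2.19 for Actg2 (adjusted p = 0.00237), 3.4 for Cd74 (adjusted p = 0.0169) and -0.64 for Nrp2 (adjusted p = 0.031). It was 3.44 for Angpt4 (adjusted p = 0.0325), -1.65 for Rbpj (adjusted p = 0.0283), -0.86 for Itpr3 (adjusted p = 0.0498) and 1.71 for Ptprj (adjusted p = 0.00971). Actg2, Nrp2, Angpt4, Itpr3 and Cd74 moved the same way in both line numbers, with a different size. Within line numbers 1 and 2, Ecscr was at 0.02 and 2.75. Rbpj (1.33 and -0.33) and Ptprj (-0.66 and 1.05) changed sign. Among all genes, 1003 showed a positive and 979 a negative difference of this kind. Line numbers are labels that are not known to pair cultures, and line number means correlated at -0.02 between genotypes. The p-values of this test measure only the spread between the 2 libraries of a culture. A genotype difference that varies and a difference between single cultures therefore cannot be told apart here.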

How the results depend on the processing

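Of the members, Mcam, Flt1, Adgra2, Ptprb, Notch3 and Jph2 kept the sign of the genotype difference in all 17 alternatives, with log2 ranges of 0.81 to 1.72, 1.22 to 2.41, -1.80 to -0.80, -4.06 to -2.73, -1.88 to -0.81 and -5.60 to -4.62. Eng ran from -1.91 to 1.05 and changed sign with line number as a block, with a correlation within lines and with log2(TPM + 0.1). Cspg4 ran from -0.18 to 0.63 and changed sign in the same 3 and without Fib-dZeb1 line 2 replicate 1. Under each of the 3 settings 2 members had a higher mean in place of 4. Members called higher numbered 0, and 2 (Mcam and Flt1) with line number as a block, beside 1292 of all genes under that block. That block treats line numbers as pairs, which they are not known to be. Members called lower numbered 2, then 0 with summed lines and 1 with a correlation within lines, beside 1121, 6 and 146 of all genes. As the members were picked with genotype values known, all these counts are a description of the choice. Values within line numbers 1 and 2 alone were added after seeing the data.

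Over all genes 978 were higher and 1121 lower. These counts were 2272 and 719 by library size only, 1572 and 1758 in DESeq2, 9 and 6 with summed lines, 114 and 146 with a correlation within lines (0.543) and 1984 and 725 with log2(TPM + 0.1), so with library size only, summed lines and log2(TPM + 0.1) more genes were called higher than lower. Listed genes besides the members gave 8 higher and 17 lower. Higher calls were 13 by library size only, 0 with summed lines and 2 with a correlation within lines, and lower calls were 31 in DESeq2, 0 and 3. Without a filter, line differences in Fib-Ctrl were 1745 higher and 1827 lower (1078 and 1130 with it), in Fib-dZeb1 1111 and 1108 (439 and 451; DESeq2 gave 811 and 781), and differences between line numbers 1689 and 1573 (1003 and 979).

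Leaving out 1 library at a time gave 476 to 1011 higher and 508 to 1141 lower genes for genotype, and 4 to 9 and 8 to 20 listed genes. It gave 314 to 1633 higher and 326 to 1633 lower between the lines of Fib-Ctrl, 46 to 547 and 46 to 673 in Fib-dZeb1, and 348 to 1439 and 337 to 1411 for differences between line numbers. Members with a higher mean numbered 3 to 4, those with a lower mean 4 to 5 and those called lower 1 to 3.

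The replicate number was not taken as a pairing, since deviations of same-numbered libraries had correlations of 0.20, -0.04, -0.04 and 0.07, and the own number was the best match for 3 of 8 libraries. The means of a replicate number over both lines did correlate between genotypes, at 0.34, over 2 numbers only. With it as a replicate block, genotype calls were 920 higher and 1046 lower, line calls 1710 and 1635 in Fib-Ctrl and 879 and 865 in Fib-dZeb1, and differences between line numbers 1552 and 1562. By reads in place of TPM, the mean shares of Flt1-203, Eng-202 and Mcam-202 moved by less than 1 SD, whereas that of Adgra2-201 in Fib-Ctrl went from 84.6% ± 7.37 to 93.5%. Each genotype had 2 cultures, and few reads stood behind Rgs5, Notch3 and the forms of Eng in Fib-dZeb1 line 2.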

Other observations

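On chromosome 10, the tested genes around Ptprb within 2 Mb had log2 fold changes between -2.40 and 3.25, beside -3.41 for Ptprb itself. The nearest on each side, Zfc3h1 and Cnot2, had log2 fold changes of -0.20 (SE 0.19) and 0.02 (SE 0.12). Farther away a run of neighbours differed between the lines of Fib-dZeb1: line 2 minus line 1 was -2.08 for Cpsf6, -4.03 for Mdm2, -3.55 for Slc35e3, -3.88 for Nup107, -3.29 for Rap1b and -3.86 for Mdm1 on the log2 scale (edgeR adjusted p = 0.000226 to 0.00317). Against Fib-Ctrl, the log2 fold change over all Fib-dZeb1 libraries was 1.6 for Cpsf6, 2.3 for Mdm2 and 2.43 for Slc35e3. It was 3.06 for Nup107, 2.42 for Rap1b and 3.25 for Mdm1, so Fib-dZeb1 line 1 lay above the Fib-Ctrl mean in each. These genes start 1069 to 1866 kb beyond the start of Ptprb, whose own difference between these lines was 1.29 (SE 0.64). Of 20 tested neighbours, 3 were lower in Fib-dZeb1 (Rab21 at -0.78, Tmem19 at -0.89 and Frs2 at -0.81) and 1 was higher. The higher gene was Mdm1 (edgeR adjusted p = 0.0486), which belongs to the run that parted the Fib-dZeb1 lines. Lyz2, which starts 1002 kb beyond the start of Ptprb, was at -2.40 with an edgeR adjusted p = 0.0605 and a DESeq2 adjusted p = 0.00425.

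Of 12 epithelial markers 3 were tested and 2 rose, and of 4 mesothelial markers 1 was tested and rose, all 3 from near 0. Epcam went from 0.0403 ± 0.0271 to 3.63 ± 1.27 CPM (n = 4 each, edgeR adjusted p = 0.000902), Krt18 from 0.129 ± 0.190 to 42.6 ± 54.5 CPM (edgeR adjusted p = 0.0115) and Msln from 0.0258 ± 0.0516 to 3.83 ± 3.06 CPM (edgeR adjusted p = 0.00552), while Cdx1 and Cdx2 had 0 reads. Krt19 did not pass the test (edgeR adjusted p = 0.106), and among untested markers Lgr5 had 1022 reads in Fib-Ctrl and 5 in Fib-dZeb1, and Wt1 had 32 and 4. Within Fib-Ctrl, Lgr5 ran from 0.0582 to 29.6 CPM and Wt1 from 0.0516 to 0.772 CPM. With a correlation within lines the limma-voom adjusted p was 0.0321 for Epcam, 0.408 for Krt18 and 0.129 for Msln. Ano1, a chloride channel of interstitial cells of Cajal, was at 11.3 ± 7.61 and 53.0 ± 32.6 CPM (edgeR adjusted p = 0.0431), with a limma-voom adjusted p = 0.135 and an edgeR adjusted p = 0.0625 with a replicate block, and lost the edgeR call without any of 6 libraries, all but the first replicates of Fib-Ctrl line 1 and Fib-dZeb1 line 2 (adjusted p = 0.0639 to 0.0981). Kit, the defining gene of those cells, had 0 reads in Fib-Ctrl and 5 in Fib-dZeb1. Of 12 fibroblast markers 3 fell, among them Col1a1 from 22800 ± 3200 to 7270 ± 2800 CPM (edgeR adjusted p = 0.00761) and Col1a2 from 14200 ± 1830 to 4190 ± 1740 CPM (edgeR adjusted p = 0.00633), with limma-voom adjusted p = 0.0981 and 0.0791. Immune markers were sparse, with 0 of 4 tested genes called by edgeR, 3 with an unadjusted p under 0.05 and 2 called by DESeq2, Lyz2 at 5.94 ± 5.35 and 1.13 ± 0.473 CPM and Cd74 at 1.02 ± 1.06 and 3.48 ± 1.12 CPM. Of 6 markers of enteric glia and neurons 0 reached the filter, with S100b at 37 reads in all.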
